A study of Caenorhabditis elegans with 6 samples.

Results

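Ribosomal protein genes were followed in small RNAs that co-precipitated with WAGO-4, an Argonaute of the Caenorhabditis elegans germline. Members were all protein-coding genes whose symbol begins with rpl- or rps-, together with the stalk genes rla-0, rla-1 and rla-2 and the fusion gene ubl-1. The annotation holds 82 such genes, and 80 of them were matched in the count tables, out of 45510 genes in all and 19605 protein-coding genes. They comprise 45 large subunit genes, 31 small subunit genes, 3 stalk genes and 1 ubiquitin-like fusion gene. The remaining pair, rpl-41.1 and rpl-41.2, was not analysed here.

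Ribosomal proteins assemble with ribosomal RNA into the small subunit, which reads the mRNA, and the large subunit, which joins amino acids, and their mRNAs are among the most abundant in growing cells. WAGO-4 carries secondary siRNAs, which RNA-dependent RNA polymerases copy from mRNA templates, so that they are antisense to the gene they come from. Reads in the sense direction have the sequence of the mRNA itself. Antisense and sense reads were therefore treated as separate readouts, each scaled to counts per 1000000 reads (CPM) of its own strand unless stated otherwise.

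Every animal carried 3xFLAG::GFP::WAGO-4, small RNAs were recovered with the anti-FLAG M2 antibody, and the labels give young adults kept at 20 °C. The 6 libraries, 1 per group, were animals after lin-15b RNAi, animals exposed to oma-1 dsRNA (P0), their F1 and F3 descendants, animals without RNAi on HT115, a bacterial strain used to feed dsRNA, and a first untreated library. The growth notes differ between groups and do not all match the young adult stage. Those of P0 and HT115 mention embryos held at several temperatures, those of F1 mention L1 larvae on plates without food, and those of F3 add embryos exposed to ultraviolet light. The part of these conditions in any difference cannot be told apart from that of the group. No input or untagged precipitate was analysed here, so the values describe the precipitate and not enrichment. In such bulk material, fewer cells of a type and less RNA per cell cannot be told apart.

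Gene-assigned reads numbered 8667735 to 11309227 per library, and the antisense share of a library ran from 55.6% in F1 to 77.8% on HT115. The counts cover 45162 genes in the first untreated and lin-15b RNAi libraries, called the first set here, and 45510 in the others. In both strands chk-2 had 6070 CPM in the first untreated library and 4385 CPM after lin-15b RNAi. In HT115, P0, F1 and F3 it had 512 to 647 CPM. The part of the set in a difference between sets cannot be told apart from that of the group. The first untreated table has a single column, taken here to be both strands added together, and comparisons with it rest on that reading. Of the targeted genes, oma-1 had 8684 antisense reads in P0, 1725 in F1, 1443 in F3 and 713 on HT115, and lin-15B had 11375 after lin-15b RNAi, against 559 on HT115. In both strands lin-15B had 1250 CPM after lin-15b RNAi, against 188 CPM in the first untreated library and 74.6 CPM on HT115. All 13 germline marker genes reached 25 CPM in antisense reads in each library with strands. The 11 intestine markers summed to 6.29 to 15.8 CPM in antisense reads but to 43876 to 69609 CPM in sense reads. With 1 library per group there is no replicate error and no test. The intervals given are 95% intervals for counting error alone, and PCR copies of a molecule are not independent reads.

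The antisense level of ribosomal protein genes was above that of most protein-coding genes in the precipitate, as was that of other translation genes. On HT115 the median member had 197 CPM per kilobase of transcript, against 0.680 for all protein-coding genes, most of which had few reads. The median member lay at percentile 97.2 of protein-coding genes, 66 of the 80 were in the top 10% and all 80 were above the median gene. The median gene lay at percentile 95.9 for elongation and release factors, 92.0 for initiation factors, 90.8 for mitochondrial ribosomal proteins, 90.02 for biogenesis genes and 83.7 for aminoacyl-tRNA synthetases. After lin-15b RNAi the median member had 106 CPM per kilobase, and 49 were in the top 10%, while the median elongation or release factor had 116 CPM per kilobase. Members are short, with a median transcript of 538 nucleotides, against 1165 for protein-coding genes. Across the 80 members on HT115, antisense level per kilobase and transcript length had a Spearman coefficient of 0.04.

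Of the large subunit genes, rpl-34 stood highest in P0, F1, F3 and on HT115, while rpl-11.1, with 790 CPM, did after lin-15b RNAi. The gene rpl-34 lies on chromosome IV from 12268995 to 12269490 (WBcel235, plus strand) and encodes protein eL34. Its antisense level was 72.7 CPM after lin-15b RNAi, 775 CPM in P0, 1340 CPM in F1, 1061 CPM in F3 and 956 CPM on HT115. The lin-15b library is thus far below the other 4. In both strands rpl-34 was low in the first untreated library too, the other library of the first set, with values given below. Per kilobase, rpl-34 had 2590 CPM on HT115, ahead of rpl-16 with 972. The gene rpl-16 (chromosome III, 3502841 to 3503604, minus strand; RefSeq symbol rpl-13A) encodes protein uL13. Its antisense level was 175 CPM after lin-15b RNAi, 556 CPM in P0, 899 CPM in F1, 794 CPM in F3 and 647 CPM on HT115. Both genes had their highest level in F1.

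The other large subunit genes among the 10 highest per kilobase on HT115 were rpl-43 with 889 CPM per kilobase, rpl-11.1 with 856, rpl-1 with 625 and rpl-33 with 514. They encode eL43, uL5, uL1 and eL33. Among small subunit genes rps-14 (protein uS11) had 765 CPM per kilobase, rps-4 (eS4) 641 and rps-11 (uS17) 637. The gene ubl-1, whose product joins a ubiquitin-like domain to protein eS31, completed the 10 with 513. At the other end, rpl-42 had only 4 antisense and 4 sense reads on HT115, so its level could not be read at this depth. The next lowest were rpl-25.1 with 3.29 CPM per kilobase, rpl-37 with 26.5, rpl-11.2 with 29.6 and rpl-30 with 38.8.

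Sense reads ordered the genes differently. The highest sense levels per kilobase on HT115 were those of rps-23, encoding uS12, with 1959 CPM, and rpl-27, encoding eL27, with 1746 CPM. In absolute sense reads rpl-2 (uL2), rps-23 and rpl-5 (uL18) led with 1140, 944 and 934 CPM. Across the 80 members on HT115, antisense and sense levels per kilobase had a Spearman coefficient of 0.18 and a Pearson coefficient of 0.52. The points share a library and gene lengths.

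**Figure D1:**
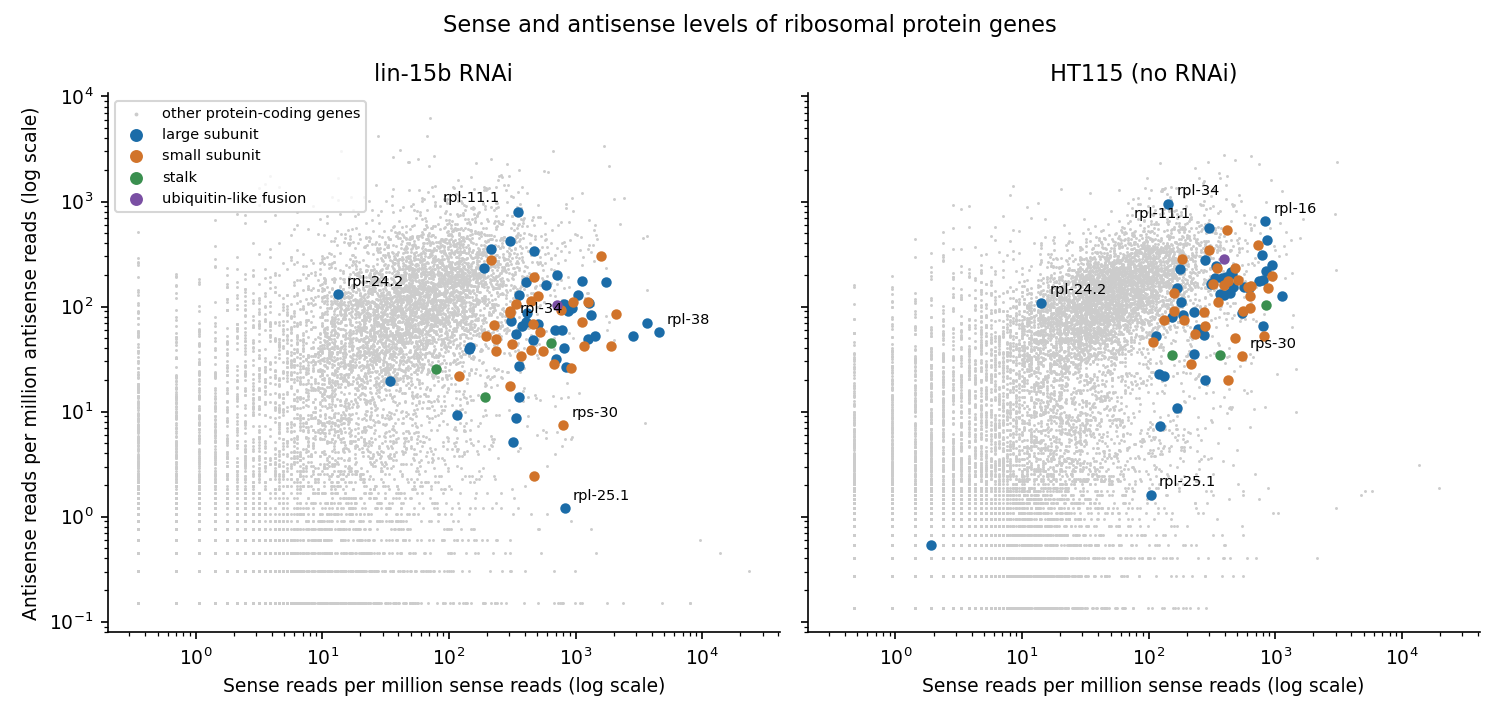
Sense level (x axis, CPM of sense reads) against antisense level (y axis, CPM of antisense reads) of each gene after lin-15b RNAi and on HT115, on log axes, with ribosomal protein genes coloured by role over other protein-coding genes in grey; genes with 0 reads on either strand are not drawn. Most members sit at the right edge of the grey cloud. The gene rpl-24.2 lies to the left of most members with 13.4 and 14.2 CPM of sense reads, and rpl-25.1 lies low with 1.21 and 1.62 CPM of antisense reads.

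Members had a lower antisense share than other genes. Of their reads, 23.6% were antisense after lin-15b RNAi, 39.8% in P0, 32.8% in F1, 41.3% in F3 and 57.9% on HT115. Over all protein-coding genes these shares were 73.2%, 75.4%, 62.2%, 78.0% and 83.1% in the same libraries. On HT115, 35 of the 79 members with at least 100 reads were below 50% antisense, which is 44.3%, while 806 of 6818 protein-coding genes were, which is 11.8%. The stalk genes were lower still, with 30.7% on HT115 (Wilson interval 29.3 to 32.1), and the small subunit genes had 54.6%, the large subunit genes 60.7%.

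Among other translation genes, 4 lists had higher antisense shares than the members on HT115 and 1 a lower one. Antisense reads made up 93.6% for the 69 mitochondrial ribosomal protein genes and 81.8% for the 35 initiation factor genes. The 8 elongation and release factor genes, whose mRNAs are also abundant, had 46.5% on HT115, below the members' 57.9%. Their share was 24.18% after lin-15b RNAi, close to the members' 23.6%, and below the members' share in P0 (31.0%), F1 (22.5%) and F3 (36.2%). The aminoacyl-tRNA synthetases had 86.9% and the genes of ribosome biogenesis and RNA polymerase I had 89.3%. The highest antisense levels in these 5 lists on HT115, in CPM not divided by length, were 591 for mrps-6, 386 for eif-3.C, 755 for eef-2, the translocase of elongation, 956 for aars-2, an alanyl-tRNA synthetase, and 549 for rpoa-1, a subunit of RNA polymerase I.

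Single members spanned nearly the whole range. The gene rpl-24.2, known in RefSeq as rsl-24D1, encodes a relative of eL24 whose yeast counterpart acts in ribosome assembly. It was 95.8% antisense after lin-15b RNAi, 94.5% in P0, 89.3% in F1, 92.9% in F3 and 96.4% on HT115. These shares are above the members' total in each library. The 3 members with the highest sense share on HT115, among those with at least 100 reads, were rpl-25.1, rps-27 (eS27) and rpl-37 (eL37). Their antisense shares there were 5.19%, 14.2% and 17.1%.

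**Figure D2:**
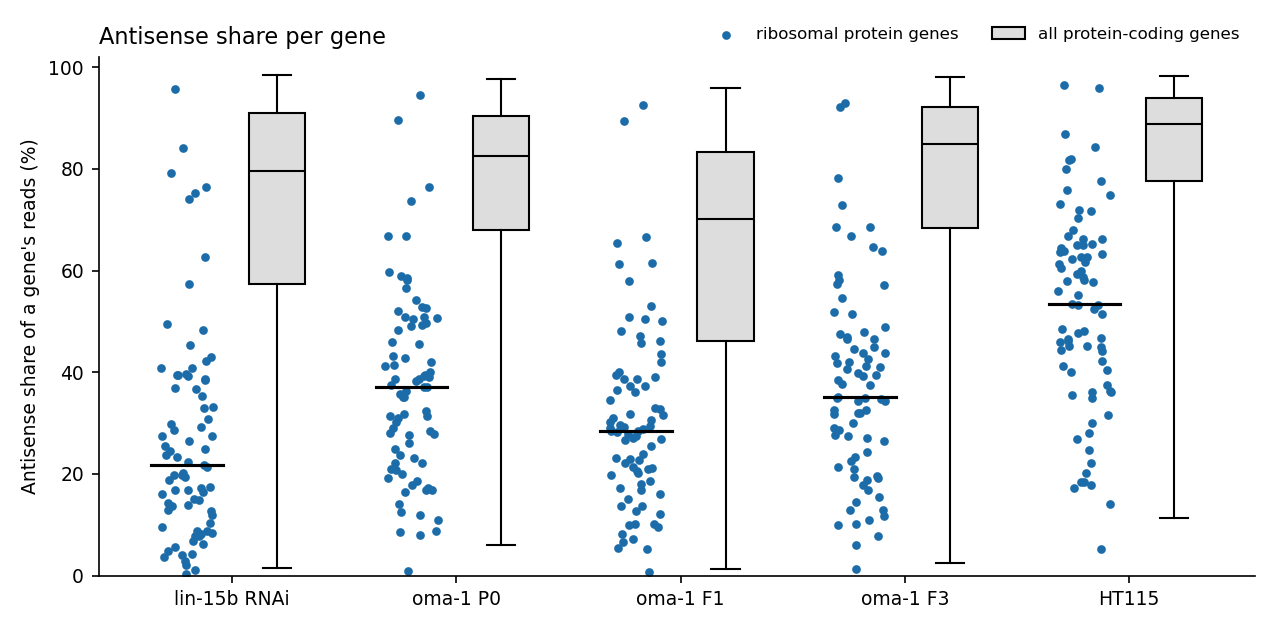
Antisense share of each gene's reads in percent, for genes with at least 100 reads, in the 5 libraries with strands; blue points are ribosomal protein genes with their median as a bar, and grey boxes show quartiles and the 5th to 95th percentiles of all protein-coding genes. The members' median is 21.8% after lin-15b RNAi and 53.5% on HT115, below the grey box in every library.

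Paralogous pairs were unequal, though rpl-24.1 and rpl-24.2 mainly in sense reads. The genes rpl-11.1 (chromosome V, 3585312 to 3586064, minus strand) and rpl-11.2 (chromosome X, 2241738 to 2242618, minus strand) both encode uL5. Antisense reads of rpl-11.1 reached 790 CPM after lin-15b RNAi, 560 in P0, 595 in F1, 544 in F3 and 560 on HT115. Those of rpl-11.2 were 39.1, 19.9, 28.3, 29.6 and 21.6 CPM in the same libraries, below those of rpl-11.1 in each. Their sense levels were closer, at 297 CPM for rpl-11.1 and 133 CPM for rpl-11.2 on HT115.

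The genes rpl-25.1 (chromosome X, 4715178 to 4715796, plus strand) and rpl-25.2 (chromosome I, 8329062 to 8329647, minus strand) encode uL23. On HT115 rpl-25.1 had 12 antisense reads, or 1.62 CPM, and rpl-25.2 had 179 CPM. After lin-15b RNAi rpl-25.1 had 2330 sense reads with only 8 antisense reads. The 2 members on chromosome X are rpl-11.2 and rpl-25.1, the less abundant copy of each pair in antisense reads. For rpl-24.1, encoding eL24, and rpl-24.2 the antisense levels on HT115 were 128 and 109 CPM, and the sense levels 395 and 14.2 CPM. Other symbols that share a number were rpl-7 and rpl-7A, with 134 and 150 CPM in antisense reads on HT115, and rpl-36 and rpl-36.A, with 53.2 and 52.5 CPM. How reads matching more than 1 place were counted is not given in the sources used here, so values of near-identical copies are uncertain.

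The comparison of P0, F1 and F3 with HT115 asks what accompanies an inherited oma-1 response. Antisense reads of the members were lower in P0 and F3 than on HT115, and about level in F1, but for F3 and F1 this depends on the scaling. On the log2 scale the summed ratio was -0.16 in F3 and 0.09 in F1, and under TMM, a scaling to the trimmed mean of gene ratios, it was -0.048 in F3 and 0.14 in F1. As a share of the library's antisense reads, the 80 members held 1.11% in P0, 1.37% in F1, 1.15% in F3 and 1.29% on HT115. The summed ratio to HT115 was 0.864 in P0 (0.856 to 0.873), 1.06 in F1 (1.05 to 1.07) and 0.896 in F3 (0.888 to 0.904). The 3 comparisons share the HT115 library.

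In P0, 72 members reached 25 CPM in the higher library, the minimum for a gene to count as measured, and 68 of them were below HT115 and 4 above, while 44.8% of measured protein-coding genes were below. Their median log2 ratio was -0.21, against 0.02 for all 5513 protein-coding genes measured. Past the threshold used throughout, at least 25% higher or at least 20% lower, 12 were lower and 0 higher, beside a background of 1.72% lower and 4.72% higher. For other translation genes the median log2 ratio in P0 was 0.02 over 67 mitochondrial ribosomal proteins, -0.02 over 33 initiation factors, -0.03 over 8 elongation and release factors, -0.03 over 31 synthetases and 0.00 over 25 biogenesis genes. Of these only 1 gene passed the threshold, ife-1, an eIF4E cap-binding protein, with a ratio of 0.772.

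The lowest ratios in P0 were those of rpl-4 (uL4), rps-8 (eS8), rpl-9 (uL6), rps-3 (uS3) and rps-30. For rpl-4 the antisense level was 158 CPM in P0, against 219 CPM on HT115, a ratio of 0.721 (0.664 to 0.781). The level of rps-8 was 170 CPM in P0, against 234 CPM on HT115, and that of rps-3 was 131 CPM, against 179 CPM. For rpl-9 it was 136 CPM in P0, against 187 CPM on HT115. The members with the highest ratios were rps-28 (eS28), at 106 CPM in P0 against 91.4 CPM on HT115, and rps-29 (uS14), at 81.6 against 74.5 CPM. Next came rpl-24.2, rpl-11.1 and rps-18 (uS13), with ratios of 1.00, 1.00 and 0.985.

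In F1, 73 members were measured, 39 above HT115 and 34 below, where 41.8% of protein-coding genes were above, with a median log2 ratio of 0.02 against -0.03 for all protein-coding genes. Past the threshold, 4 were higher and 1 lower, beside a background of 3.62% higher and 6.27% lower. The 4 were rpl-34 with a ratio of 1.40 (1.36 to 1.45), rpl-16 with 1.39 (1.34 to 1.45), rpl-11.2 with 1.31 (1.04 to 1.64) and rpl-32, encoding eL32, with 1.29 (1.20 to 1.38). Of these, rpl-11.2 reached 25 CPM in F1 but not on HT115. It therefore counted as measured only through the library where it was higher. Without rpl-34 and rpl-16, the summed ratio of the other 78 members was 1.02 (1.01 to 1.03). The gene rpl-32 overlaps an exon of chmp-7 on the opposite strand, which had 130 sense reads on HT115, so its antisense reads are uncertain to that extent. The next highest ratio was 1.22 for rps-9, encoding uS4. At the low end stood rps-30, rpl-22 (eL22) with 0.822, rpl-14 (eL14) with 0.831, rps-25 (eS25) with 0.864 and rps-12 (eS12) with 0.865. Past the threshold in F1, 1 of the 67 measured mitochondrial ribosomal proteins was lower (mrps-24), 2 of the 31 synthetases were higher (pars-2 and cars-1), 1 of the 25 biogenesis genes was higher (rrp-8) and 1 lower (rpoa-12), and 0 initiation and elongation factors were.

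In F3, 67 of 73 measured members were below HT115 and 6 above, where 53.0% of protein-coding genes were below, with a median log2 ratio of -0.26 against -0.01 for all protein-coding genes. Past the threshold, 30 were lower and 1 higher, beside a background of 9.29% lower and 8.39% higher. The single higher one was rpl-11.2, with a ratio of 1.37 (1.11 to 1.69). It reached 25 CPM in F3 but not on HT115. It therefore counted as measured only through the library where it was higher, which favours a higher call. The count of lower members depends on the scaling: under TMM, which moves F3 by 0.11 on the log2 scale, 11 were lower and 3 higher, beside 5.06% lower and 16.3% higher over all protein-coding genes at that scaling. Without that scaling, 3 of 67 mitochondrial ribosomal proteins were higher and 2 lower in F3, 1 of 33 initiation factors was higher (ife-5) and 1 lower (ife-1), 2 of 8 elongation and release factors were higher (eef-2 and eef-1B.1), 1 of 31 synthetases was higher (lars-2), and 0 of 25 biogenesis genes were either.

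The lowest members in F3 were rps-1 (eS1), rps-30, rpl-22, rps-19 (eS19) and rpl-7A (eL8). For rps-1 the level was 94.0 CPM in F3, against 149 CPM on HT115, a ratio of 0.629 (0.571 to 0.693). For rpl-22 it was 74.4 CPM in F3, against 110 CPM on HT115. The level of rpl-7A was 105 CPM in F3, against 150 CPM on HT115, and the ratio of rps-19 was 0.698 (0.597 to 0.815). Above HT115 stood rpl-16 with a ratio of 1.23, rps-28 with 1.21, rpl-34 with 1.11 and rps-14 with 1.07.

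**Figure D3:**
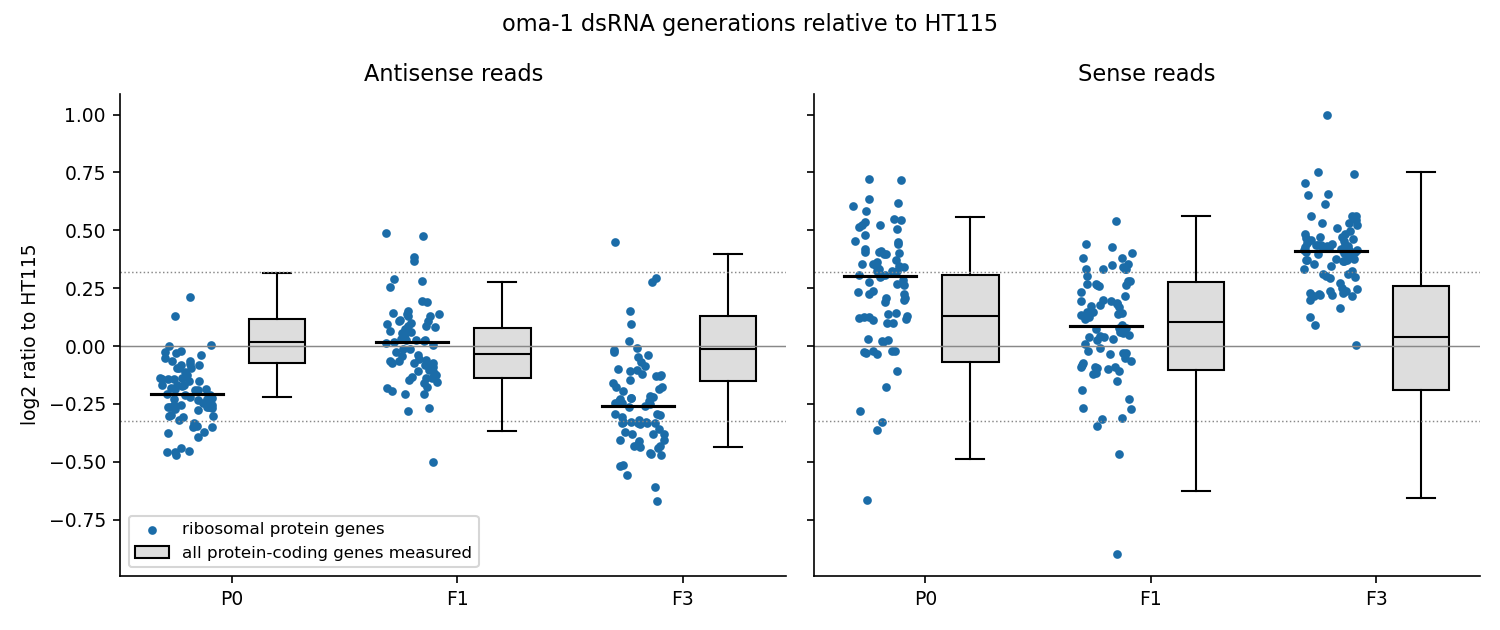
Log2 ratio to HT115 of antisense reads (left) and sense reads (right) in P0, F1 and F3; blue points are measured ribosomal protein genes with their median as a bar, grey boxes show quartiles and the 5th to 95th percentiles of all protein-coding genes measured, and dotted lines mark the threshold. In antisense reads the medians are -0.21, 0.02 and -0.26, and in sense reads 0.30, 0.08 and 0.41.

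Of the 72 members measured in all 3 generations, rps-30 (chromosome V, 7776578 to 7777225, plus strand) was the 1 that was lower past the threshold in each, and 0 were higher. Over the 5417 protein-coding genes measured in all 3, 24 were lower in each, which is 0.443%, and the 3 comparisons share the HT115 library, so a single member is near that share. The gene encodes a fusion of a ubiquitin-like domain with protein eS30. Its antisense level was 24.9 CPM in P0, 23.9 CPM in F1 and 22.2 CPM in F3, against 33.8 CPM on HT115. That rests on 150, 130 and 162 reads in P0, F1 and F3, against 250 on HT115. The gene reached the 25 CPM minimum only on HT115. In all 3 comparisons it therefore counted as measured through the library where it was higher, which favours a lower call. The ratios were 0.735 (0.597 to 0.904), 0.705 (0.566 to 0.875) and 0.655 (0.535 to 0.802).

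The stalk genes, which form the flexible arm that recruits translation factors, were below the median member in antisense level in P0, F1, F3 and on HT115. The antisense level of rla-0 was 80.7 CPM in P0, 105 CPM in F1 and 77.3 CPM in F3, against 103 CPM on HT115. That of rla-1 was 32, 37.4 and 30.6 CPM in P0, F1 and F3, against 34.2 CPM on HT115. That of rla-2 was 30.7, 31.9 and 27.8 CPM, against 34.9 CPM on HT115. Summed, the stalk genes had a ratio of 0.835 in P0 (0.765 to 0.911), 1.01 in F1 (0.930 to 1.10) and 0.790 in F3 (0.726 to 0.859). For ubl-1 the levels were 239 CPM in P0, 297 CPM in F1 and 233 CPM in F3, against 287 CPM on HT115.

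Comparing the generations with each other leaves HT115 out. In F1 against P0, 61 of 71 measured members were above and 10 below, where 39.0% of protein-coding genes were above, and 21 were higher past the threshold, beside a background of 3.28%. The summed ratio was 1.23 (1.22 to 1.24). Without rpl-34 and rpl-16 that ratio was 1.17. In F3 against F1, 68 of 71 were below and 3 above, where 44.3% of protein-coding genes were below, and 24 were lower past the threshold, beside a background of 3.84%. The summed ratio was 0.842 (0.834 to 0.851). F1 is also the library with the lowest antisense share of all reads, and its part in this was not tested. The order of the members stayed nearly fixed: antisense levels on HT115 and in P0, F1 and F3 had Spearman coefficients of 0.99 each across the 80 genes, and on HT115 and after lin-15b RNAi 0.74.

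**Figure D4:**
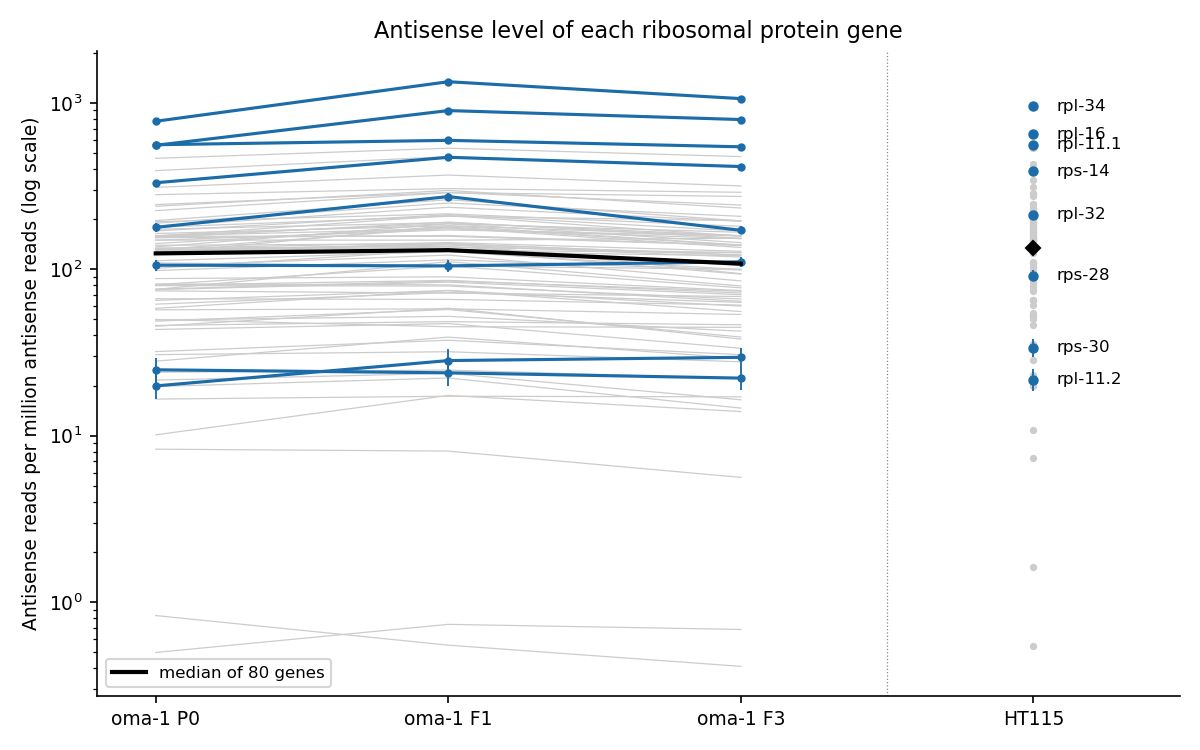
Antisense level of each of the 80 genes (y axis, CPM of antisense reads, log scale) in P0, F1 and F3, joined by lines, and on HT115, shown apart at the right; named genes are blue with 95% Poisson intervals, the others grey, and the black line and diamond are the median. The median is 125 CPM in P0, 130 CPM in F1, 108 CPM in F3 and 133 CPM on HT115, and rpl-34 and rpl-16 peak in F1.

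Sense reads of the members were higher in P0 and F3 than on HT115, relative to all protein-coding genes, and moved with them in F1. As a share of the library's sense reads the members held 3.85% in P0, 3.51% in F1, 4.33% in F3 and 3.29% on HT115. In P0 the summed ratio was 1.17 (1.16 to 1.18), in F1 1.07 (1.06 to 1.08), and in F3 1.32 (1.31 to 1.33), beside 1.05, 1.05 and 1.04 for all protein-coding genes. The median log2 ratio was 0.30 in P0, 0.08 in F1 and 0.41 in F3, beside 0.13, 0.10 and 0.04 for all protein-coding genes. In F3 all 78 measured members were above HT115, as were 55.4% of protein-coding genes, and 56 were higher past the threshold and 0 lower, beside a background of 19.9% and 15.5%. In P0, 36 were higher and 3 lower, beside 23.0% and 10.0%, and in F1, 13 of 78 were higher and 3 lower, beside 20.2% and 11.4%. The P0 rise was shared by other translation genes. Elongation and release factors had a summed sense ratio of 1.23 there, above the members, though their median log2 ratio was 0.17. Mitochondrial ribosomal proteins had 1.15 and a median of 0.29. For F3 each other translation list was below the members in sum and median. The highest sum was 1.22, for elongation and release factors, and the highest median 0.29, for mitochondrial ribosomal proteins.

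The largest sense ratio in F3 was that of rps-28, at 319 CPM in F3, against 160 CPM on HT115, a ratio of 2.00 (1.76 to 2.27). In P0 it was 1.65 for both rps-23 and rps-11. In contrast rpl-25.2 was at 503 CPM in P0, against 796 CPM on HT115. Marker genes also differed in sense reads. The 8 muscle markers summed to 3601 CPM in P0, 4531 CPM in F1 and 6392 CPM in F3, against 3423 CPM on HT115. The 31 sperm markers summed to 61.8, 77.6 and 493 CPM in P0, F1 and F3, against 49.8 CPM on HT115. The 11 intestine markers summed to 49746 CPM in P0, 56312 CPM in F1 and 43876 CPM in F3, against 53232 CPM on HT115, and the 13 germline markers to 7732, 7108 and 6300 CPM in P0, F1 and F3, against 6149 CPM on HT115. Among the generations the members' sums were lowest in F1 and highest in F3. The muscle and sperm sums were also highest in F3, but lowest in P0. The intestine sum was highest in F1 and the germline sum in P0. The part of such tissue differences in the members' ratios was not tested.

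The lin-15b comparison asks how the precipitate changes when a synMuv B transcriptional repressor is depleted. In both strands summed, members were higher after lin-15b RNAi than in the first untreated library, at 214148 reads against 127671 reads. Of the reads after lin-15b RNAi, 163628 were sense and 50520 antisense. The strand mix of the first untreated library is not known, so the difference cannot be assigned to either strand. The summed ratio was 2.01 (2.00 to 2.02). Of 78 measured members 76 were above and 2 below, where 53.1% of protein-coding genes were above. Past the threshold 67 were higher and 2 lower, beside a background of 23.4% higher and 16.8% lower. The median log2 ratio was 0.99, against 0.03 for all protein-coding genes and 0.01 for mitochondrial ribosomal proteins. Elongation and release factors had 0.70, with all 8 above the first untreated library. Their summed ratio was 2.11 (2.08 to 2.15), above that of the members.

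The largest ratio was that of rpl-38, encoding eL38, on chromosome V from 15512166 to 15512737 (plus strand). It had 1400 CPM after lin-15b RNAi, against 179 CPM in the first untreated library, a ratio of 7.84 (7.48 to 8.21). Of its reads after lin-15b RNAi 12841 were sense and 376 antisense. The ratio of rpl-39 (eL39) was 7.02 (5.94 to 8.35). After lin-15b RNAi rpl-25.1 had 248 CPM, against 35.9 CPM in the first untreated library, rps-30 had 246 against 40.2 CPM, and rps-12 had 296 against 74.1 CPM. The 2 lower members were rpl-22, at 313 CPM after lin-15b RNAi against 630.5 CPM in the first untreated library, and rpl-24.2, at 95.2 against 128 CPM. Close to level were rla-1, rps-19 and rps-22 (uS8), with ratios of 1.01, 1.08 and 1.11.

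Against HT115, where strands could be separated, the members split by strand after lin-15b RNAi. Their antisense reads had a summed ratio of 0.585 (0.579 to 0.592), with 8 higher past the threshold and 59 lower of 73 measured, beside a background of 23.2% and 49.9%. Their sense reads had a summed ratio of 1.75 (1.74 to 1.77), with 43 higher and 14 lower of 78 measured, beside 39.2% and 29.1%. For rpl-34 the antisense ratio was 0.0749 (0.0681 to 0.0822), and for rpl-28, encoding eL28, it was 3.76 (3.38 to 4.18). For rpl-38 the sense ratio was 27.1 (24.4 to 30.2). These libraries differ in more than RNAi, since their growth notes differ and they belong to different sets. The part of RNAi cannot be told apart from that of the set.

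Marker sums moved in the same comparison. In both strands the intestine markers summed to 20909 CPM after lin-15b RNAi, against 9074 CPM in the first untreated library. The muscle markers summed to 2672 CPM, against 776 CPM, and the germline markers to 5203 CPM, against 4397 CPM. The part of such tissue differences in the members' ratio was not tested.

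The 2 libraries without RNAi were also compared. They belong to different sets, and the part of the set cannot be told apart from that of the growth conditions. The strands of the first untreated library could not be separated. Members had 164469 reads in both strands on HT115, against 127671 in the first untreated library, a summed ratio of 1.55 (1.54 to 1.56). Of 79 measured members 57 were higher past the threshold and 6 lower, beside a background of 49.1% and 24.0%. The median log2 ratio was 0.80, against 0.30 for all protein-coding genes. Elongation and release factors had a median of 1.01 and a summed ratio of 1.85, both above the members. Mitochondrial ribosomal proteins had 0.74 and 1.31. The medians of initiation factors, synthetases and biogenesis genes were 0.30, 0.38 and 0.35. The members' difference depends on the scaling: their summed log2 ratio was 0.63, and 0.093 under TMM, which moves the comparison by -0.54. Under TMM 36 members were higher and 19 lower, beside 20.8% higher and 47.9% lower over all protein-coding genes at that scaling.

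The gene rpl-34 had 775 CPM on HT115, against 78.8 CPM in the first untreated library, a ratio of 9.96 (9.29 to 10.7). After lin-15b RNAi it had 144 CPM in both strands, so it was low in both libraries of the first pair. The ratios of rpl-27, rpl-36.A, rps-30 and rps-9 were 3.99, 3.81, 3.70 and 3.42. In the other direction rpl-22 had 126 CPM on HT115, against 630.5 CPM in the first untreated library, and rps-19 had 93.8 against 336 CPM. Next were rpl-28 with a ratio of 0.611, rpl-7 (uL30) with 0.619 and rpl-25.1 with 0.686.

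**Figure D5:**
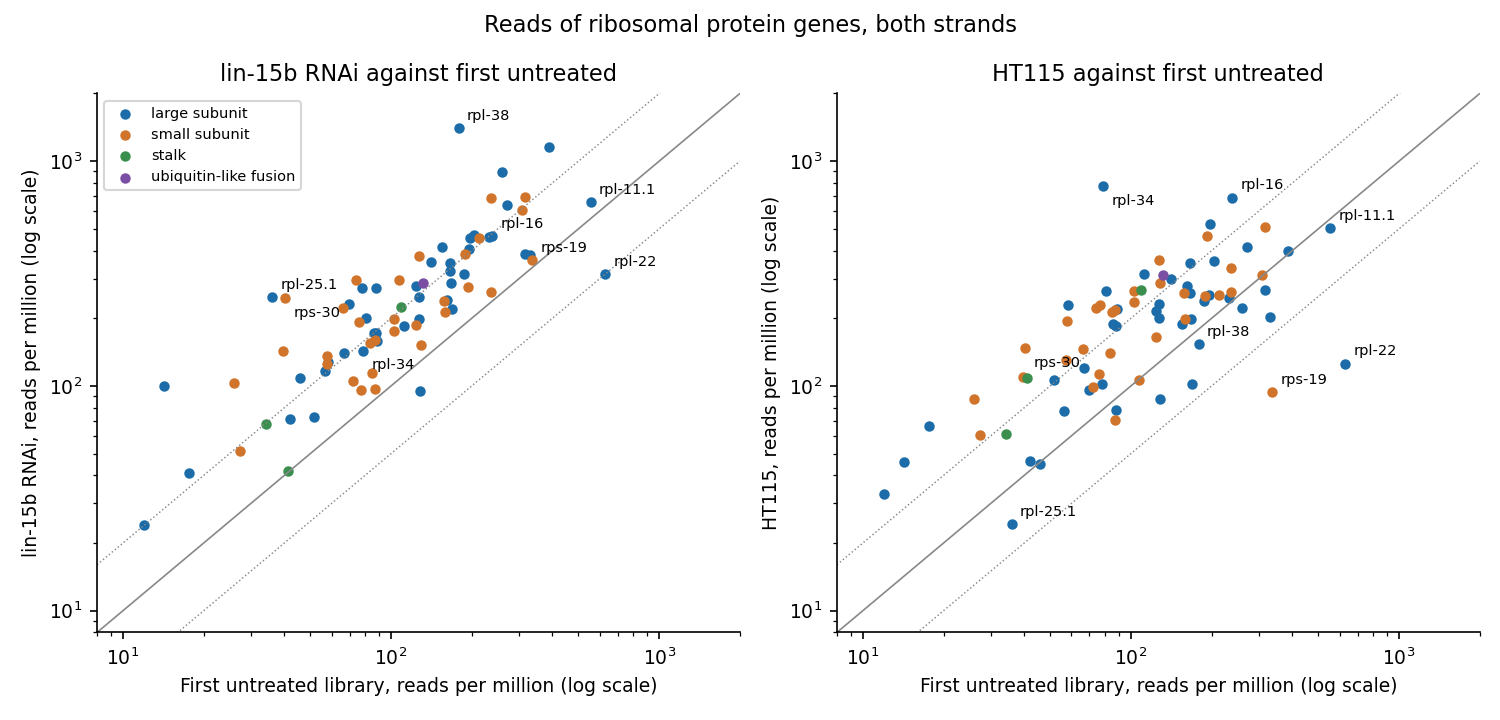
Reads of ribosomal protein genes in both strands after lin-15b RNAi (left, y axis) and on HT115 (right, y axis) against the first untreated library (x axis), in CPM on log axes, coloured by role; the solid line marks equal values and dotted lines a 2-fold difference, and rpl-42 lies below the axes. After lin-15b RNAi 76 of 78 measured members lie above the line with rpl-38 highest, and on HT115 rpl-34 lies far above it and rpl-22 and rps-19 far below.

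The genes are spread over the genome and host other RNAs. In the Ensembl annotation of WBcel235, 23 members lie on chromosome I, 10 on II, 19 on III, 18 on IV, 8 on V and 2 on X. Introns of 14 members hold 21 snoRNA genes, which guide modification of ribosomal RNA. An exon of 10 members overlaps a gene on the opposite strand, and 5 share an exon with a gene of the same strand. Leaving the 10 out gave a summed log2 ratio of -0.14 in F3, against -0.16 with them.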

How the data were processed

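The deposited tables hold raw read counts per annotated transcript, 1 table per library, as the authors left them. Inserts of 17 to 30 nucleotides were cloned, per the labels' protocols. Bowtie2 is the aligner in the submitters' processing notes. Its version, the counting tool, the build and the annotation release were not given in the sources used here. All 5 stranded tables carry no column names, and strand was judged from microRNAs, 0.202% to 0.417% antisense.

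Counts were summed per gene, and members were matched by gene ID to Ensembl release 115 symbols. The 3 lines without a gene held 0.000106% to 0.000296% of reads and were left out. Counts were divided by the strand's total over genes present in both tables. Log2 ratios had 0.5 reads added; a gene was measured at 25 CPM in the higher library; the threshold was 25% higher or 20% lower. Intervals are exact Poisson for levels, exact conditional binomial for folds and Wilson for shares, at 95%.

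The members and lists were chosen with earlier results of these data known. Genes were named by rule: the 10 highest and 5 lowest antisense levels per kilobase on HT115, stalk and fusion genes, paralogs, the 5 highest and 5 lowest ratios of each comparison, members past the threshold in the same direction in P0, F1 and F3, the 3 highest sense levels and shares, and from each other translation list the 2 highest antisense levels and the largest ratio of each comparison, of which only some are printed; oma-1 checked the labels. Sense levels per kilobase, members named for the sense ratios and the comparisons of F1 with P0 and of F3 with F1 were added after the values were seen. Interval coverage was tested on simulated data. Python 3.11.15, scipy 1.17.1, R 4.3.3 and edgeR 4.0.16 (TMM only) were used. Alternatives covered scaling, strand, pseudocount, minimum level, overlapping genes and the library used as control.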

Additional observations from a re-analysis of the deposited data

Results flagged for a closer look

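The summed antisense reads of ribosomal protein genes lay on opposite sides of HT115 in different generations, with ratios of 0.864 in P0, 1.06 in F1 and 0.896 in F3. Each generation is 1 library, so the difference between generations was not tested.

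Of the 72 members measured in all 3 generations, 33 were below HT115 in each and 1 was above in each. A further 31 were below in P0 and F3 and above in F1. The share of all protein-coding genes with these patterns is not given here, so these counts have no background beside them. Of the genes named here, 3 were measured in all 3 generations, passed the threshold in at least 1 of them, and had intervals wholly below 1 in 1 generation and wholly above 1 in another. For rpl-34 the ratio to HT115 was 0.811 in P0, 1.40 in F1 and 1.11 in F3. For rpl-16 it was 0.860 in P0, 1.39 in F1 and 1.23 in F3. For rpl-32 it was 0.841 in P0, 1.29 in F1 and 0.808 in F3. All 3 genes were among those named for an extreme ratio in F1, so they do not stand for the members as a whole. These differences were not tested either.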

How the results depend on the processing

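Values here are summed log2 ratios of the members, with counts of members past the threshold, higher and lower. No paired analysis was possible because each group is 1 library and no result comes from a test; leaving out a library was not run for the same reason. The cause of the shifts was not tested.

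Adding the strands turned the antisense result round in P0 and F3. With both strands the summed log2 ratio to HT115 was 0.17 in P0 (26 higher, 1 lower), 0.42 in F1 (54 higher) and 0.23 in F3 (26 higher, 0 lower), and the medians were 0.25 in P0 and 0.26 in F3. With both strands, 6.58%, 13.1% and 8.24% of all protein-coding genes were higher in P0, F1 and F3, and 2.36%, 28.1% and 8.67% were lower. With the first untreated library as control, again in both strands, the sums were 0.80 in P0 (64 higher, 6 lower), 1.05 in F1 (67 higher, 4 lower) and 0.86 in F3 (64 higher, 5 lower), with medians of 0.92 in P0 and 0.93 in F3, beside 49.1%, 42.6% and 47.7% of all protein-coding genes higher and 24.4%, 30.0% and 25.7% lower. Under these 2 settings rps-30 stood at 0.43 and 2.31 in P0, 0.71 and 2.59 in F1, and 0.49 and 2.38 in F3. In P0 rpl-4 stood at 0.24 and 1.07, rpl-9 at 0.22 and 1.10, rps-3 at 0.31 and 0.75, and rps-8 at 0.58 under the second. In F3 rpl-7A stood at 0.30 and 0.71, rps-1 at 0.17 and 0.20, and rps-19 at 0.15 under the first.

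Under TMM and median-of-ratios scaling the sum was 0.14 and 0.16 in F1, where the second gave 7 higher, beside 6.12% of all protein-coding genes. In F3 it was -0.048 and -0.087, with 3 higher under each and 11 and 16 lower, beside 16.3% and 12.9% higher and 5.06% and 6.19% lower over all protein-coding genes. After lin-15b RNAi against the first untreated library it was 0.93 and 0.90. For HT115 against that library it was 0.093 and 0.076, with 36 and 33 higher and 19 lower under each, beside 20.8% and 19.6% higher and 47.9% and 49.5% lower over all protein-coding genes. Totals without the 20 most abundant genes gave 0.10 in F1.

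Without rpl-34 and rpl-16, left out after the data were seen, the sum was 0.023 in F1, -0.22 in F3 and 0.55 for HT115 against the first untreated library. In F1 2 members were then higher, beside 3.62% of all protein-coding genes. Without members that overlap an opposite-strand gene the sum was -0.14 in F3, 1.07 after lin-15b RNAi and 0.70 for HT115. After lin-15b RNAi 1 member was then lower, beside 16.8% of all protein-coding genes. With no minimum level 1 member was higher in P0 and 2 in F3, and 2 were lower in F1. The share over all protein-coding genes with no minimum level is not given here, so these last counts have no background beside them.

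With HT115 as control and antisense reads alone, lin-15b RNAi gave a sum of -0.77 with 8 higher and 59 lower and a median of -1.03. There rpl-22 stood at 1.67, rpl-24.2 at 0.24, rpl-25.1 at -0.42, rpl-38 at -1.41, rpl-39 at -1.08, rps-12 at -1.03 and rps-30 at -2.20.

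The other 68 values of sums, counts and the level percentile moved by less than their interval, or by less than 1.5 times for a count, under these alternatives and a pseudocount of 5. Depth limits the low members: rps-30 had 130 to 250 antisense reads in P0, F1, F3 and on HT115, and its intervals are wide.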
